A study of Brassica oleracea with 8 samples.

Results

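The floral transition in Brassica oleracea was followed at 7 genes across lobed kale, cabbage and TO1000: the SOC1 copies Bo4g024850 and Bo3g038880, SPL3 (Bo4g042390), AP1 (Bo2g062650), LHP1 (Bo2g013840), AGL12 (Bo6g094120) and BBX13 (Bo00579s080). They were chosen by identifier, and all 7 were found among the 60586 features counted in each library. Gene names are those the study gives to its identifiers. Only these identifiers were read for each name, and further copies were not sought. The study named these genes among those that differed between the same libraries, so their differences describe the libraries and are no independent evidence of a direction.

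In Arabidopsis, the change from leaf production to flowering is held back by FLC, a MADS-box repressor, and is carried forward by integrator genes such as SOC1 at the shoot apex. SPL3, an SBP-box factor that is silenced by a microRNA in young plants, takes part in the change to the adult and flowering state, and AP1 marks the meristem that has become floral. LHP1, also called TFL2, is a chromodomain protein of the Polycomb system that keeps flowering genes silent. AGL12, also called XAL1, is a MADS-box gene with roles in root growth and in flowering, and BBX13 belongs to the B-box zinc finger proteins related to CONSTANS.

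Reads were counted in 8 libraries: 3 of kale (var. viridis in the labels, var. acephala Red Winter in the paper), 2 of cabbage (var. sabadua in the labels, var. capitata in the paper) and 3 of TO1000 (var. alboglabra), a rapid cycling doubled haploid line. Each morphotype was a single accession, and none carried a treatment, so accession and morphotype cannot be told apart. The upper stem with its immature leaves and its apical and lateral meristems was taken 24 days after planting, from plants given 10 h of light a day. In each library 8 plants were pooled. The paper gives different, overlapping ranges of fully expanded leaves for the morphotypes on that day, lowest in cabbage. Leaf stage and morphotype thus cannot be told apart either. All reads were mapped to the TO1000 genome, and the part of this reference in differences from TO1000 was not tested. Another cabbage replicate, which the paper left out for few reads of low quality, was not analysed here. Total counts lay between 3016197 in cabbage replicate 1 and 7539991 in kale replicate 1, and 1 count was worth 0.137 to 0.362 CPM, the scaled count per 1000000 counts of a library. In pools of mixed tissue, fewer cells of a type and less RNA per cell cannot be told apart.

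The tissue was checked against a pair of marker lists. The 6 genes of young shoots and leaf primordia (ANT, YAB1, GRF3, GRF4, ASL6 and NGA1) were all counted in every library. Their summed level was 43.0 to 66.1 CPM in kale, 119.5 to 128.5 CPM in cabbage and 114.8 to 126.9 CPM in TO1000. The 6 trichome genes (GL1, GL2, EGL3, TRY and both MYB106 copies) summed to 82.5 to 112.1 CPM in kale, 42.7 to 55.1 CPM in cabbage and 54.9 to 56.5 CPM in TO1000. In kale all 6 were counted in every library, in cabbage 4 were, and in TO1000 4 were. The summed levels of kale lay apart in both lists, but not every gene followed its sum. Of the shoot genes, 4 were called lower, 1 higher and 1 not called in kale in each kale comparison, and the higher one was NGA1 (log2 fold change 1.08 against TO1000 and 1.51 against cabbage). Of the trichome genes, 5 were called higher and 1 lower in kale in each, and the lower one was EGL3 (-2.11 against TO1000 and -1.88 against cabbage). The lists were a selection, and other leaf and trichome genes of the study did not all follow the sums. Higher in kale were BEL1 Bo3g029830 (1.56 against TO1000 and 1.38 against cabbage), BEL1 Bo4g142080 (1.11 and 1.58) and BLI (1.27 and 1.41). HDG11 was lower (-1.74 and -1.84), while WRKY44 Bo3g031650 (4.01 and 2.68) and CML42 Bo3g162280 (4.45 and 6.91) were higher. The study had also drawn both lists from these libraries, and the part of tissue make-up in the differences below was not tested.

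AP1 stood out as the gene counted in kale and hardly elsewhere, while SPL3, LHP1, AGL12, BBX13 and the SOC1 copy Bo4g024850 were lowest in kale. The other SOC1 copy, Bo3g038880, was lowest in cabbage. A gene was called where edgeR gave an adjusted p under 0.05 and the fitted log2 fold change lay beyond 1 in either direction. Between kale and TO1000, 7 of 7 genes were called, against 27.7% of the 28126 genes tested. Of these, 1 was higher in kale (background 14.2%) and 6 were lower (background 13.5%). Between kale and cabbage, 7 of 7 were called, against 25.7% of genes tested, with 2 higher (14.7%) and 5 lower (11.1%) in kale. Between cabbage and TO1000, 3 of 7 were called, against 26.2%, with LHP1 higher in cabbage (11.5%) and both SOC1 copies lower (14.8%). That last count fell to 1 without cabbage replicate 1.

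Both kale comparisons called 7 of 7 genes, against 12.8% of genes tested, and these comparisons share the kale libraries. All 3 comparisons called 3 of 7 genes (both SOC1 copies and LHP1), against 3.59%. Since the study selected the genes for such differences, nothing further is read from these counts. The median log2 fold change of the 7 was -1.53 against TO1000 and -1.55 against cabbage in kale, beside medians of -0.00 and 0.06 over all tested genes. Between cabbage and TO1000 it was -0.41 over the 6 genes other than AP1, beside -0.02 over all. The filter on low counts was met in every morphotype by SPL3, LHP1 and BBX13. SOC1 Bo4g024850 and AGL12 met it in no kale library, SOC1 Bo3g038880 in no cabbage library, and AP1 in kale only, so these 4 entered the test through the morphotypes where they were high.

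**Figure D1:**
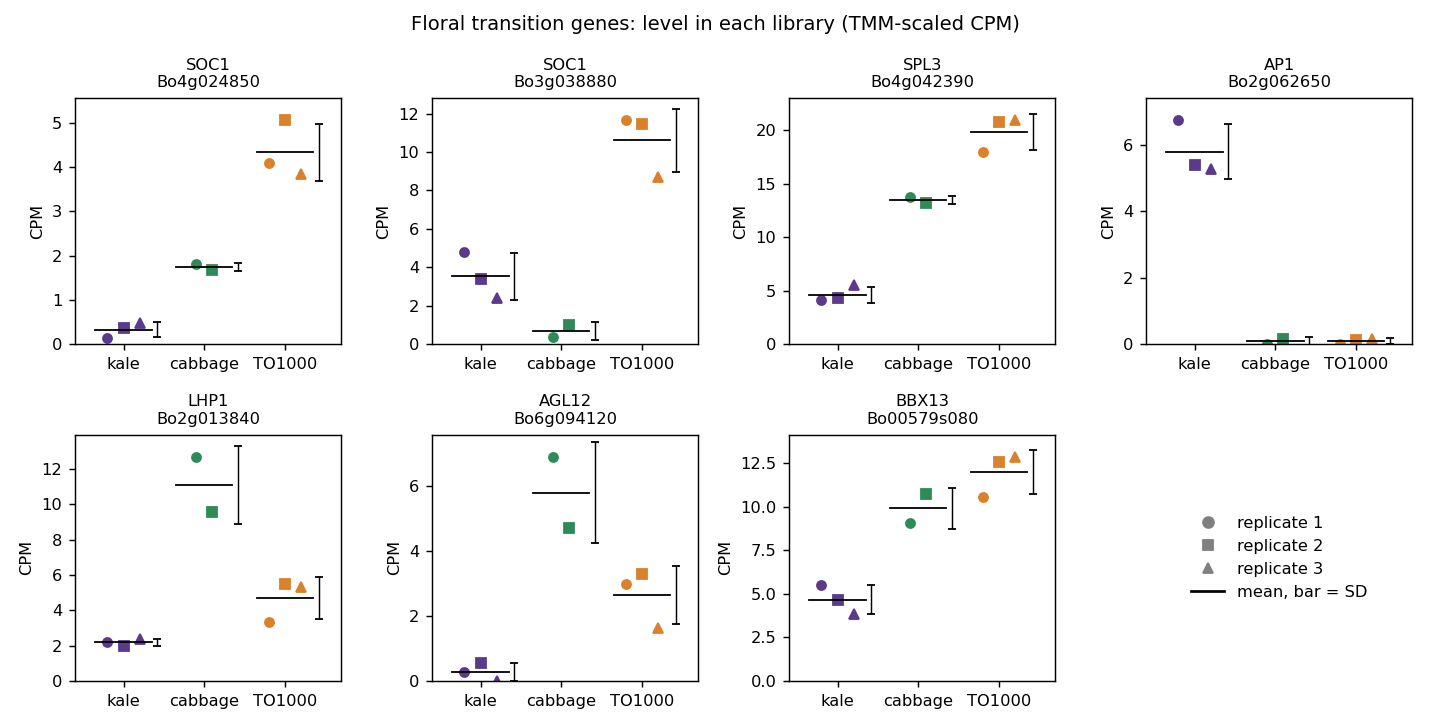
Level of each of the 7 genes in each library, in CPM scaled by TMM factors, for kale, cabbage and TO1000 from left to right in each panel. Points are libraries with a symbol per replicate, horizontal lines are means and vertical bars are SD over 3, 2 and 3 libraries; AP1 sits between 5.26 and 6.74 CPM in kale and at no more than 1 count in any other library, and SPL3 and BBX13 are lowest in kale.

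SOC1, a MADS-box gene that gathers signals from several flowering pathways, was read at the pair of copies that the study names. Further copies were not sought, and SOC1 counts below are those of this pair. Bo4g024850 had 0.138, 0.359 and 0.478 CPM in the kale libraries, 1.81 and 1.68 CPM in cabbage, and 4.09, 5.05 and 3.84 CPM in TO1000. The groups did not overlap, and the order was kale, cabbage, TO1000. Kale held only 5 counts of this copy over its libraries, against 15 in cabbage and 89 in TO1000. The mean was 0.325 ± 0.173 CPM in kale (SD, n = 3), 1.74 ± 0.0948 CPM in cabbage (n = 2) and 4.33 ± 0.642 CPM in TO1000 (n = 3).

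Of the 3 differences of Bo4g024850, that between kale and TO1000 had the smallest adjusted p, with a log2 fold change of -3.77 (SE 0.52, edgeR adjusted p = 3.79e-05). Between kale and cabbage it was -2.45 (SE 0.67, adjusted p = 0.00827), a call that was lost without cabbage replicate 2 (adjusted p = 0.0516) and in the test against a 2-fold change (0.0531). Between cabbage and TO1000 it was -1.32 (SE 0.48, adjusted p = 0.0376). This last call was held in 9 of 19 alternative settings, whose adjusted p ran between 0.0185 and 0.427. It was lost on leaving out either cabbage library (adjusted p = 0.0967 and 0.194 without replicates 1 and 2) or any TO1000 library (0.0502, 0.115 and 0.0604 without replicates 1, 2 and 3), while the direction stayed.

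The second copy, Bo3g038880, had a different order. It had 4.81, 3.41 and 2.39 CPM in kale, 0.362 and 1.01 CPM in cabbage, and 11.7, 11.5 and 8.71 CPM in TO1000. Cabbage was lowest, with 7 counts in all, kale was between, and no groups overlapped. The mean was 3.54 ± 1.22 CPM in kale (SD, n = 3), 0.684 ± 0.455 CPM in cabbage (n = 2) and 10.6 ± 1.65 CPM in TO1000 (n = 3). This copy was lower in kale than in TO1000 (log2 fold change -1.53, SE 0.30, adjusted p = 7.32e-04) and higher in kale than in cabbage (2.18, SE 0.52, adjusted p = 0.00366). It was lower in cabbage than in TO1000, by the larger margin (-3.72, SE 0.47, adjusted p = 1.56e-05). Without cabbage replicate 2, which left a single cabbage library with 1 count, these values were 3.26 for kale against cabbage and -4.79 for cabbage against TO1000, both still called. Thus kale against cabbage gave opposite signs at the SOC1 copies, both called.

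How SOC1 counts were divided between the copies was read within each library, where depth and scaling cancel. Bo4g024850 took 2.78%, 9.52% and 16.7% of SOC1 counts in the kale libraries (95% Wilson intervals 0.492 to 14.2, 2.65 to 28.9 and 4.70 to 44.8). In cabbage it took 83.3% and 62.5% (43.6 to 97.0 and 38.6 to 81.5). In TO1000 it took 26.0%, 30.6% and 30.6% (18.4 to 35.4, 23.1 to 39.3 and 21.8 to 41.0). Bo4g024850 was the minor copy in every kale and TO1000 library and the major one in both cabbage libraries, though the intervals of the cabbage libraries are wide and both reach below an even split. These intervals cover counting error only, and PCR copies, which were not told apart, would make them too narrow. Pooled, the copies Bo4g024850 and Bo3g038880 had 5 and 64 counts in kale, 15 and 7 in cabbage and 89 and 217 in TO1000.

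**Figure D2:**
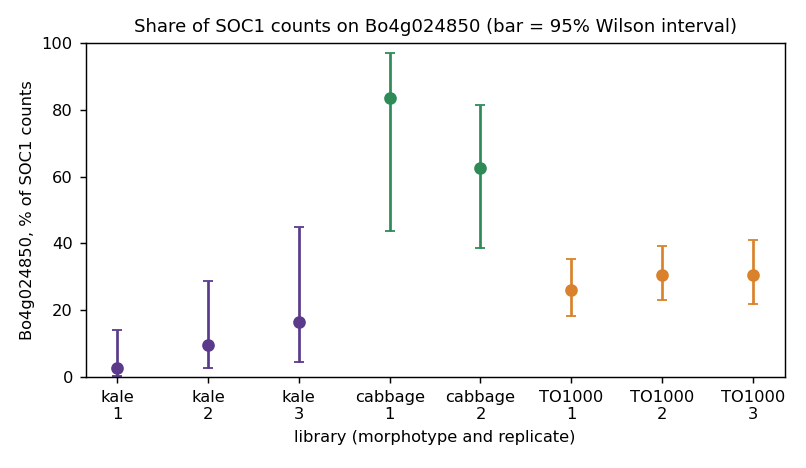
Share of SOC1 counts on copy Bo4g024850, in percent of the counts of both copies, in each library of kale, cabbage and TO1000. Points are single libraries and bars are 95% Wilson intervals; kale lies between 2.78% and 16.7%, cabbage at 83.3% and 62.5%, and TO1000 between 26.0% and 30.6%.

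The log2 ratio of Bo4g024850 over Bo3g038880, with 0.5 counts added to each, averaged -3.20 ± 1.26 in kale (SD, n = 3), 1.28 ± 0.836 in cabbage (n = 2) and -1.28 ± 0.186 in TO1000 (n = 3). The differences were -1.92 between kale and TO1000, -4.48 between kale and cabbage and 2.56 between cabbage and TO1000. In the exact two-sided permutation test each gave p = 0.1, and 0.1 after adjustment over the 3, the smallest value that so few libraries allow. The threshold of 0.05 was out of reach. With a library left out, the difference lay between -2.49 and -1.24 for kale and TO1000 (the ends without kale replicates 3 and 1), between -5.07 and -3.80 for kale and cabbage (without cabbage replicate 2 and kale replicate 1) and between 1.97 and 3.15 for cabbage and TO1000 (without cabbage replicates 1 and 2).

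Reads of closely similar copies can be divided unevenly by counting, so the split between the SOC1 copies is uncertain, and their counts were also summed, a choice made after the data were seen. Summed SOC1 had 4.95, 3.77 and 2.87 CPM in kale, 2.17 and 2.68 CPM in cabbage, and 15.7, 16.5 and 12.5 CPM in TO1000. TO1000 stood well above the others, while kale and cabbage lay near each other without overlapping. The sum was lower in kale than in TO1000 (log2 fold change -1.91, SE 0.25, adjusted p = 2.26e-05) and lower in cabbage than in TO1000 (-2.57, SE 0.33, adjusted p = 1.83e-05). Between kale and cabbage the sum was not called (0.66, SE 0.37, adjusted p = 0.165). A sum cannot show the opposite signs of the single copies. It also cannot tell reads divided wrongly from a difference between the copies.

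SPL3 is bound up with plant age, since the microRNA that silences it declines as plants mature. The morphotypes were harvested at an equal age in days, while their leaf counts differed, and the part of stage was not tested. SPL3 had 4.13, 4.30 and 5.50 CPM in kale, 13.8 and 13.2 CPM in cabbage, and 18.0, 20.8 and 21.0 CPM in TO1000. Kale was lowest, and the groups did not overlap. The mean was 4.64 ± 0.747 CPM in kale (SD, n = 3), 13.5 ± 0.365 CPM in cabbage (n = 2) and 19.9 ± 1.68 CPM in TO1000 (n = 3). SPL3 was lower in kale than in TO1000 (log2 fold change -2.12, SE 0.21, adjusted p = 1.24e-06) and lower in kale than in cabbage (-1.55, SE 0.25, adjusted p = 1.26e-04). Both calls were held in all 19 alternative settings. Cabbage and TO1000 were neighbours that were not called (-0.56, SE 0.22, adjusted p = 0.0521). In some settings the adjusted p fell under 0.05, as low as 0.0265 in the fit of these 2 morphotypes alone. The value stayed between -0.63 and -0.50, inside the fold threshold, so none of the 19 settings called it.

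AP1, which gives a meristem its floral identity, was the gene of the set with the most one-sided pattern. It had 6.74, 5.38 and 5.26 CPM in the kale libraries, from 49, 30 and 22 counts. Cabbage had 0 and 1 count, and TO1000 had 0, 1 and 1. Thus a gene known for flowers was counted, at the 1 identifier read, in the young shoots of kale. It was at or under 1 count in each of the other 5 libraries. With the libraries of each morphotype pooled, the ratio of scaled counts between kale and TO1000 was 60.6 (95% counting interval 16.4 to 507.5, from 101 and 2 counts). Between kale and cabbage it was 51.8 (9.08 to 2065, from 101 and 1 counts). The edgeR adjusted p was 3.06e-06 and 6.42e-05 in these comparisons, and both calls were held in all 19 alternative settings. The 1 cabbage count came from replicate 2, so no ratio to cabbage is given without that library. Cabbage and TO1000 were both under the floor of 3 counts per group (0.344 CPM in cabbage and 0.147 CPM in TO1000), so no difference between them was detectable at this depth.

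LHP1, the Polycomb protein that in Arabidopsis helps to keep FLC and the florigen gene FT silent, was highest in cabbage. It had 2.20, 1.97 and 2.39 CPM in kale, 12.7 and 9.55 CPM in cabbage, and 3.31, 5.46 and 5.31 CPM in TO1000. Kale was lowest in every library, TO1000 was between, and no groups overlapped. The mean was 2.19 ± 0.209 CPM in kale (SD, n = 3), 11.1 ± 2.20 CPM in cabbage (n = 2) and 4.69 ± 1.20 CPM in TO1000 (n = 3). The largest difference was that between kale and cabbage, with a log2 fold change of -2.32 (SE 0.34, adjusted p = 7.16e-05), held in all 19 settings. The other differences were smaller and less firm. Between kale and TO1000 it was -1.11 (SE 0.33, adjusted p = 0.0132), lost without TO1000 replicate 2 (-0.99, adjusted p = 0.0555), on thinning to the smallest library (-1.02, adjusted p = 0.0635) and in the test against a 2-fold change (adjusted p = 0.595). Between cabbage and TO1000 it was 1.21 (SE 0.31, adjusted p = 0.00594), lost without cabbage replicate 1 (1.03, adjusted p = 0.0537), on thinning (0.94, adjusted p = 0.0559) and in the test against a 2-fold change (adjusted p = 0.419).

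AGL12, first known from roots, was nearly at the detection limit in kale. It had 0.275, 0.538 and 0 CPM in kale, 6.88 and 4.69 CPM in cabbage, and 2.99, 3.28 and 1.62 CPM in TO1000. The kale values rest on 2, 3 and 0 counts, and they lay under every cabbage and TO1000 library. The mean was 0.271 ± 0.269 CPM in kale (SD, n = 3), 5.79 ± 1.55 CPM in cabbage (n = 2) and 2.63 ± 0.885 CPM in TO1000 (n = 3). AGL12 was lower in kale than in cabbage (log2 fold change -4.18, SE 0.65, adjusted p = 1.05e-04) and lower in kale than in TO1000 (-3.08, SE 0.63, adjusted p = 0.00116), in all 19 alternative settings. Without kale replicate 2 these values were -4.85 and -3.79. Cabbage lay above TO1000 in each library but did not pass the test (1.09, SE 0.48, adjusted p = 0.0792).

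BBX13 had the smallest difference of the 7 between kale and cabbage. It had 5.50, 4.66 and 3.83 CPM in kale, 9.05 and 10.7 CPM in cabbage, and 10.6, 12.6 and 12.8 CPM in TO1000. Kale was below all other libraries, while cabbage and TO1000 overlapped. The mean was 4.66 ± 0.837 CPM in kale (SD, n = 3), 9.89 ± 1.19 CPM in cabbage (n = 2) and 12.0 ± 1.25 CPM in TO1000 (n = 3). The log2 fold change was -1.34 between kale and TO1000 (SE 0.23, adjusted p = 2.94e-04) and -1.08 between kale and cabbage (SE 0.27, adjusted p = 0.00485). The last value lies near the threshold of 1, and its call was lost without kale replicate 3 (-0.95, adjusted p = 0.0155), without cabbage replicate 2 (-0.93, adjusted p = 0.0799) and in the test against a 2-fold change (adjusted p = 0.625). Cabbage and TO1000 did not pass the test (-0.26, SE 0.25, adjusted p = 0.431).

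**Figure D3:**
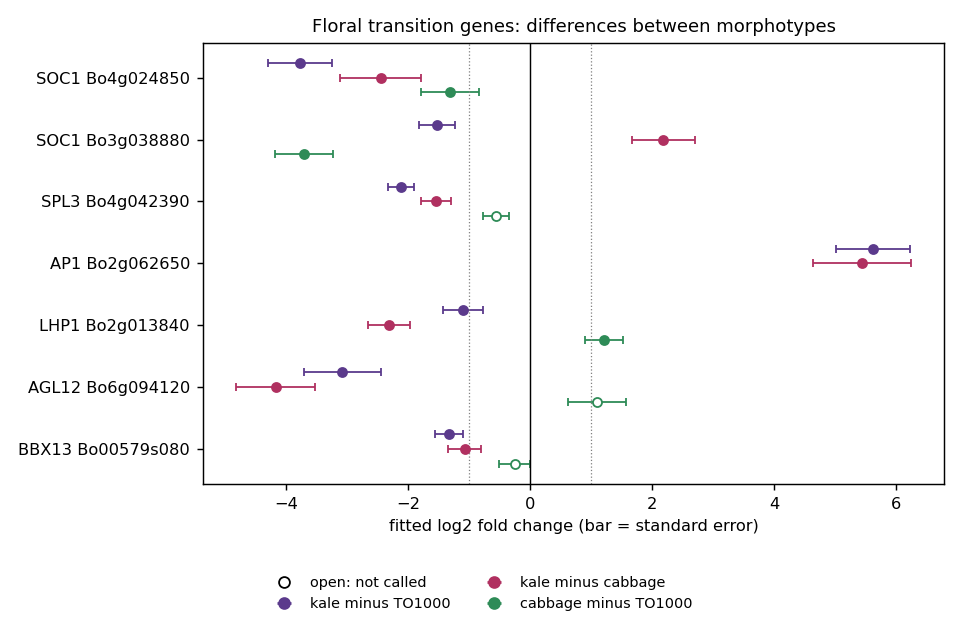
Fitted log2 fold change of each of the 7 genes for kale minus TO1000, kale minus cabbage and cabbage minus TO1000, with standard errors as bars, filled points for called genes, open points for genes not called and dotted lines at -1 and 1. All kale differences are filled, with AP1 far to the right (its fitted values rest on 2 counts in TO1000 and 1 in cabbage, and cabbage minus TO1000 is not drawn) and SOC1 Bo3g038880 on opposite sides against TO1000 (-1.53) and against cabbage (2.18).

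The other flowering genes that the study names with an identifier gave a setting for these 7. Of the 11, 10 could be tested. In kale, 8 were called higher than in TO1000 (14.2% of genes tested) and 2 lower (13.5%). Against cabbage, 8 were called higher in kale (14.7%) and 2 lower (11.1%), and all 10 were called in both kale comparisons (12.8%). Between cabbage and TO1000, 3 were called higher in cabbage (11.5%), 1 lower (14.8%) and 6 were not called. The study drew this list from the same libraries too. Its median log2 fold change in kale was 2.36 against TO1000 and 2.27 against cabbage. Between cabbage and TO1000 it was 0.04, or 0.13 with groups under 3 counts set to 3.

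FLC, the repressor that holds SOC1 down in Arabidopsis, was higher in kale at both copies that the study names. The paper mentions further FLC copies in Brassica oleracea, which were not read here. Bo9g173370 had 31.2, 17.4 and 20.6 CPM in kale, 2.53 and 2.18 CPM in cabbage, and 3.15, 3.83 and 2.95 CPM in TO1000. Its log2 fold change was 2.80 between kale and TO1000 (SE 0.26, adjusted p = 6.02e-07) and 3.32 between kale and cabbage (SE 0.35, adjusted p = 2.43e-06). The other copy was graded across the morphotypes. Bo3g024250 had 16.6, 14.9 and 15.8 CPM in kale, 5.43 and 7.37 CPM in cabbage, and 0.945, 0.956 and 0.885 CPM in TO1000. It was called in all 3 comparisons: 4.06 between kale and TO1000 (adjusted p = 1.94e-08), 1.26 between kale and cabbage (adjusted p = 0.00128) and 2.80 between cabbage and TO1000 (adjusted p = 8.66e-06). Kale had the highest level of both named FLC copies and the lowest level of SOC1 copy Bo4g024850, while SOC1 copy Bo3g038880 was lowest in cabbage. A link between FLC and SOC1 levels in these libraries was not tested.

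Relatives of FLC in the MADS-box family did not all share its direction. AGL69 averaged 14.9 ± 1.97 CPM in kale (SD, n = 3), 1.05 ± 0.0569 CPM in cabbage (n = 2) and 0.287 ± 0.126 CPM in TO1000 (n = 3). AGL27 averaged 11.9 ± 1.44 CPM in kale, 2.43 ± 0.360 CPM in cabbage and 3.63 ± 0.279 CPM in TO1000, and both genes were called higher in kale than in either morphotype. AGL70 went the other way, with 2 counts in kale, 15 in cabbage and 29 in TO1000. AGL68 had 52 counts in kale, 5 in cabbage and 0 in TO1000, where a count of 0 allows up to 0.147 CPM. AGL19, a flowering activator in Arabidopsis, had 23 counts in kale, 0 in cabbage and 4 in TO1000 and was too low to be tested.

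Of the remaining genes, FRL4A, a relative of the FLC activator FRIGIDA, averaged 9.43 ± 1.48 CPM in kale (SD, n = 3), with 1 count in cabbage and 7 in TO1000. ELF3, a part of the circadian clock that delays flowering in Arabidopsis, averaged 11.3 ± 1.73 CPM in kale (n = 3), 2.22 ± 1.47 CPM in cabbage (n = 2) and 4.23 ± 0.713 CPM in TO1000 (n = 3). BLH3, a homeodomain gene, averaged 9.63 ± 3.22 CPM in kale, 2.27 ± 0.370 CPM in cabbage and 2.52 ± 0.684 CPM in TO1000. COL1, a relative of CONSTANS, was lower in kale, with 3.05 ± 1.42 CPM against 7.99 ± 2.53 CPM in cabbage and 6.22 ± 0.512 CPM in TO1000. Its log2 fold change was -1.01 between kale and TO1000 (edgeR adjusted p = 0.0286), near the threshold of 1, and -1.32 between kale and cabbage (0.0137). COL1 and BBX13, both of the B-box family, were thus lower in kale than in either morphotype.

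**Figure D4:**
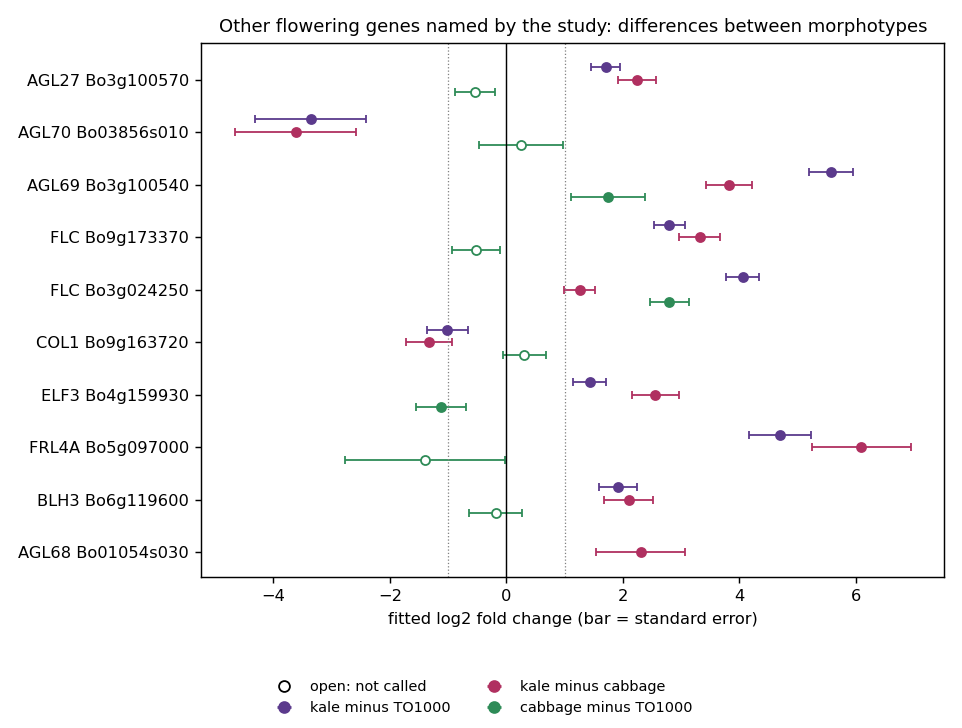
Fitted log2 fold change of the 10 other flowering genes tested, for kale minus TO1000, kale minus cabbage and cabbage minus TO1000, with standard errors as bars, filled points for called genes and dotted lines at -1 and 1. Only AGL70 and COL1 lie to the left in the kale differences; AGL68 is not drawn against TO1000, where it had 0 counts, and FRL4A against cabbage and AGL70 in kale rest on 1 and 2 counts.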

How the data were processed

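Per the labels and the paper, the authors used Cutadapt 2.4 for trimming and STAR, run 2 times over, for alignment to the genome of TO1000. The deposited values are unnormalized read counts per gene, 1 file per library. The cDNA was amplified by PCR without DNase treatment, and molecular identifiers are not described. Whether counting used strand is not given in the sources used here.

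The 8 libraries were grouped by their titles. Counts were fitted in R 4.3.3 with edgeR 4.0.16 (filterByExpr with a minimum count of 10 and a minimum total of 15, TMM factors, quasi-likelihood F test, two-sided, morphotype as the only term). P values of the 3 comparisons over 28126 genes, 84378 in all, were adjusted as 1 table (Benjamini-Hochberg). SE was the log2 fold change divided by the square root of F. P values judge differences against the spread between these pooled samples. They do not cover the spread between single plants or between accessions of a morphotype. The code was tested on simulated counts. Intervals of count ratios are exact binomial intervals at 95% on pooled counts. They leave out the spread between libraries and any PCR copies.

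Other settings were a different tool (DESeq2 1.42.0), RLE or upper-quartile scaling, filtering by a mean count of 10 or not at all, adjustment per comparison, a test against a 2-fold change (glmTreat), FDR without a fold threshold, fits of 2 morphotypes, a replicate block, thinning to the smallest library and each library left out. The genes and lists were chosen with earlier results of these data known. Named genes were the 7, the other flowering genes with an identifier in the study, both marker lists and, for each of the 7, the most alike gene by fitted differences. Some further leaf and trichome genes of the study were named beside the marker lists. No identifier matched the RefSeq table used, so positions and sequences are not given.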

Additional observations from a re-analysis of the deposited data

How the results depend on the processing

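Over 19 alternative settings, 356 values of the 7 genes kept direction and call, 23 kept direction but lost the call, and none was reversed (AP1 between cabbage and TO1000 not counted). The 356 include SPL3, AGL12 and BBX13 between cabbage and TO1000, which were not called in the main fit or in any of the 19. Some settings also left out only a library of the morphotype not compared. The test against a 2-fold change (glmTreat) called 4 of the 7 between kale and TO1000 (without SOC1 Bo3g038880, LHP1 and BBX13), 5 between kale and cabbage (without SOC1 Bo4g024850 and BBX13) and 1 between cabbage and TO1000, and 4277, 3360 and 3519 of all tested genes between kale and TO1000, kale and cabbage, and cabbage and TO1000. FDR alone called 12001 between kale and TO1000. Thinning to the smallest library left 6 of the 7 called between kale and TO1000 (without LHP1) and 1 between cabbage and TO1000, where leaving out a library left 1 to 3. With the SOC1 copies summed, the value between kale and cabbage was 0.66, which lies between those of the single copies. With a library left out, the SOC1 copy ratio ranged from -2.49 to -1.24 between kale and TO1000, from -5.07 to -3.80 between kale and cabbage and from 1.97 to 3.15 between cabbage and TO1000. Correlations of same-numbered libraries ran from -0.115 to 0.196, beside -0.174 to 0.174 for libraries of different numbers. So few libraries could not decide whether replicate numbers paired the samples. With the replicate block, SOC1 Bo4g024850 between cabbage and TO1000 was -1.36 (adjusted p = 0.0693) and lost its call, and no other call of the 7 changed. Low counts limit AP1 outside kale, AGL12 and Bo4g024850 in kale and Bo3g038880 in cabbage. The fit of kale and cabbage alone did not test Bo4g024850.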

Other observations

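For each of the 7 genes, the most alike of the 71 other tested genes that the study names was found by the root mean square difference over the 3 fitted log2 fold changes. These fits share libraries, and the values are a description. The closest pair was BBX13 and ACX5, at 0.135, but 5.98% of all tested genes (1681) lay within 0.5 of BBX13. SOC1 Bo3g038880 was most like HAT5 (0.184, with 156 tested genes within 0.5), LHP1 most like the ferredoxin-1 gene Bo8g059760 (0.235, 323 genes) and SPL3 most like EGL3 (0.268, 382 genes). AGL12 was most like ASO Bo9g150050 (0.472, 36 genes). The remaining members lay further from their most alike named genes. AP1 was 0.809 from MBP2, with 18 tested genes within 0.5, and SOC1 Bo4g024850 was 1.15 from AGL70, with 61. The AP1 values include its fit between cabbage and TO1000, which rests on 1 and 2 counts (0.18, SE 1.37, beside -0.94 for MBP2). Whether AP1 has a close partner is therefore uncertain. The most alike pair among the 7 themselves was SPL3 and BBX13, at 0.557.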
